A study of Mus musculus with 9 samples.

Results

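The EGF receptor ligands and the ErbB receptors are the secreted signals and the receptor kinases of a single signalling pathway. They were chosen by gene name, and 10 of the 29205 genes in the count table were members. 7 of them encode ligands (Areg, Ereg, Epgn, Btc, Tgfa, Hbegf and Nrg1) and 3 encode receptors (Egfr, Erbb2 and Erbb3).

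The ligands are made as membrane proteins and are cut loose by metalloproteases, chiefly ADAM17 and ADAM10. A bound receptor pairs with another of its family, and the pair signals through Grb2, Sos, Ras and ERK. In the epidermis this pathway drives the growth and migration of keratinocytes, and several of the ligands are known products of keratinocytes in wounds and in psoriatic plaques.

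RNA was sequenced from the back skin of male BALB/c mice in 3 groups of 3 libraries. The study asked how Longkui Yinxiao soup (LYS), a herbal decoction, acts on psoriasis-like skin brought about by imiquimod (IMQ), an agonist of the receptor TLR7. By the study's methods each group was 3 skins, and all were collected on day 13. Library totals ran from 14658645 counts in LYS 1 to 19609878 counts in control 2. All mice were 6 to 8 weeks old, weighed 22 ± 2 g, had 7 days of acclimatisation and had the back shaved and depilated, and no genetic change is stated for any group. The control group, labelled blank, received no IMQ. The IMQ group received 62.5 mg of 5% IMQ cream a day for 5 days. The LYS group received the same cream and the soup by gavage from day 1 to day 12, in the methods' higher-dose arm.

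IMQ was compared with control for the effect of the cream, LYS with IMQ for the effect of the soup on cream-treated skin, and LYS with control for where soup-treated skin stood against untreated skin. The methods describe no base cream for control and no gavage without soup. So imiquimod cannot be told apart from the cream base, nor the soup from the gavage. The 3 comparisons share libraries, so their values are given side by side and are not independent. A gene counted as upregulated or downregulated (a DEG) at an adjusted p below 0.05 and a log2 fold change beyond 0.58 in either direction. All 10 members passed the filter on low counts in each comparison. In IMQ against control, 9 of the 10 members were upregulated and none was downregulated, while 24.1% of the 15976 genes tested were upregulated, 26.9% downregulated and 51.0% called in either direction. Upregulated genes made up 47.3% of all calls with TMM and 25.9% with library totals alone. The same 9 members had no overlap between the groups in CPM (read counts over the TMM-scaled library size), with all IMQ libraries above all controls, as had 34.1% of all genes. In FPKM, which is not TMM-scaled, the same 9 lay wholly higher in IMQ, as did 20.5% of genes, and Egfr lay wholly lower, as did 54.6%. The median log2 fold change over the 10 members was 2.23, against -0.06 over all genes. In bulk skin, more cells of a type and more RNA per cell cannot be told apart.

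In LYS against IMQ, edgeR called 0 of the 10 members and 0% of the 15460 genes tested, with a smallest adjusted p of 0.0591 over all genes (edgeR quasi-likelihood test, Benjamini-Hochberg). At an unadjusted p below 0.05 there were 3 members (Erbb3, Btc and Erbb2) and 35.2% of all genes. DESeq2 called 2 members lower (Btc and Erbb3) and 0 higher, with 9.18% of genes lower and 12.8% higher, and limma called 0. The 2 members were also lower in edgeR without a filter on low counts (3.53% of genes lower) and with all 9 libraries in 1 fit (8.62% lower). Without LYS 1, edgeR called 4 members lower, beside 11.9% of genes lower. These were Erbb3 at a log2 fold change of -1.54, Btc at -1.46, Tgfa at -1.23 and Erbb2 at -1.16. Over the whole table the calls went from 0 genes to 4262 without LYS 1 (14.9% higher) and to 1873 without IMQ 1 (5.03% lower and 6.80% higher), where 0 members were called. In CPM, 5 members lay lower in all LYS libraries than in all IMQ libraries (Ereg, Tgfa, Btc, Egfr and Erbb3), as did 22.1% of genes, and 0 members lay higher, against 16.8% of genes. In FPKM 2 members lay lower in this way (Btc and Erbb3), as did 9.61% of genes, and 0 lay higher, against 33.1% of genes, while Ereg, Tgfa and Egfr overlapped. The members' median log2 fold change was -0.63, and that of all genes was 0.04.

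In LYS against control, 6 members were upregulated and 1 was downregulated, where 15.1% of the 16003 genes tested were upregulated and 12.9% downregulated. Upregulated genes made up 53.9% of all calls with TMM and 41.5% with library totals alone. CPM had no overlap between the groups for 5 members on the higher side (Areg, Hbegf, Tgfa, Epgn and Nrg1) and for 1 on the lower side (Egfr), as for 25.0% and 25.3% of genes. The members' median log2 fold change was 1.52, and that of all genes was -0.01.

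**Figure D1:**
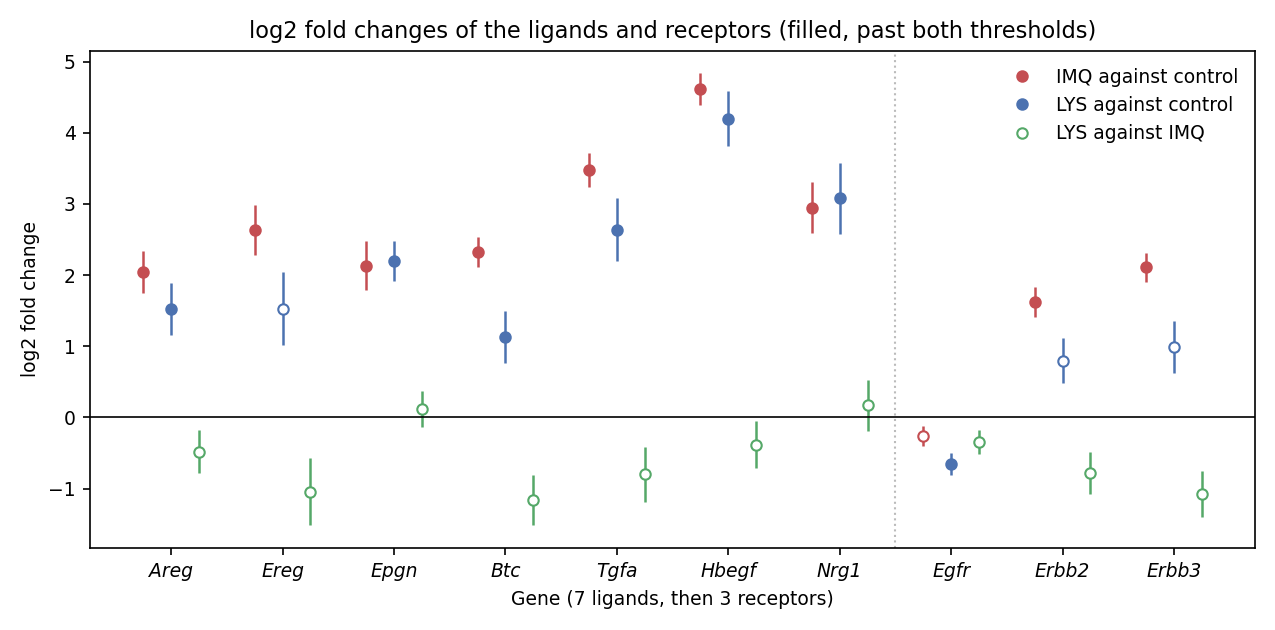
Log2 fold change (y axis) of each member (x axis) in the 3 comparisons, with bars of 1 standard error from edgeR and filled points for genes called. 9 members stand above 0 in IMQ against control, from Erbb2 at 1.62 to Hbegf at 4.61, while Egfr stands at -0.26.

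Hbegf (ENSMUSG00000024486; GRCm38, chromosome 18, 36504927 to 36515805, minus strand) encodes HB-EGF, a heparin-binding ligand of EGFR and ErbB4. Its CPM was 4.98, 4.67 and 6.82 in control 1 to 3, 111, 169 and 126 in IMQ 1 to 3, and 148, 97.9 and 54.8 in LYS 1 to 3. Every cream-treated library was above every control, the IMQ and LYS ranges overlapped, and LYS 3 was the lowest of the treated libraries. The log2 fold change in IMQ against control was 4.61 ± 0.225 (SE), a 24.4-fold difference and the largest among the members (edgeR quasi-likelihood test, Benjamini-Hochberg adjusted p = 8.8e-06). In LYS against control it was 4.2 ± 0.392 (edgeR, Benjamini-Hochberg adjusted p = 6.2e-04). LYS against IMQ gave -0.38 ± 0.335, short of the threshold (edgeR, Benjamini-Hochberg adjusted p = 0.445). Leaving out 1 library moved this value between -0.75 and -0.09. Each standard error is the size of the log2 fold change over the square root of the quasi-likelihood F.

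Tgfa (ENSMUSG00000029999; chromosome 6, 86195223 to 86275719, plus strand) encodes TGF-alpha, a ligand of EGFR. CPM was 18.8, 14.0 and 25.5 in control, 186, 257 and 211 in IMQ, and 184, 122 and 54.3 in LYS, in the order of replicates 1 to 3. The 3 groups did not overlap in CPM, though LYS 1 was just under IMQ 1, and LYS 3 was again the lowest treated library. In FPKM, LYS 1 at 27.72 was within the IMQ range of 26.2 to 31.23. Tgfa was upregulated 11.1-fold in IMQ against control, at a log2 fold change of 3.48 ± 0.240 (edgeR, Benjamini-Hochberg adjusted p = 2.5e-05). It was upregulated in LYS against control at 2.64 ± 0.446 (edgeR, Benjamini-Hochberg adjusted p = 0.00507). LYS against IMQ gave -0.80 ± 0.388 and no call (edgeR, Benjamini-Hochberg adjusted p = 0.182, and 0.0367 to 0.388 over the alternatives). Without LYS 1 this value was -1.23 and was called, and it ran from -1.23 to -0.46 over the libraries left out.

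Ereg, Areg, Epgn and Btc lie together on chromosome 5. Ereg (ENSMUSG00000029377; 91074622 to 91093646, plus strand) encodes epiregulin, a ligand of EGFR and ErbB4. Its CPM was 26.8, 14.1 and 37.6 in control, 124, 160.0 and 205 in IMQ, and 81.8, 29.2 and 115 in LYS. The IMQ libraries were above all others in CPM, but in FPKM LYS 3, at 30.62, was above IMQ 1, at 27.55. LYS 2 lay inside the control range. The log2 fold change was 2.63 ± 0.350 in IMQ against control (edgeR, Benjamini-Hochberg adjusted p = 4.3e-04). It was 1.53 ± 0.517 in LYS against control, which was not called (edgeR, Benjamini-Hochberg adjusted p = 0.0564), but was called without LYS 2, at 1.92, by DESeq2, at 1.52, and in edgeR with no filter on low counts, all 9 libraries in 1 fit or a replicate block, at 1.43 to 1.53. Against IMQ, LYS gave -1.04 ± 0.464 (edgeR, Benjamini-Hochberg adjusted p = 0.157), without a call.

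Areg (ENSMUSG00000029378; 91139599 to 91148432, plus strand) encodes amphiregulin, a ligand of EGFR alone. CPM was 3.53, 2.49 and 5.11 in control, 11.8, 18.4 and 16.4 in IMQ, and 13.3, 6.38 and 12.2 in LYS. All treated libraries were above all controls, and LYS 2 was the lowest of them. The log2 fold change was 2.05 ± 0.295 in IMQ against control (edgeR, Benjamini-Hochberg adjusted p = 6.2e-04). It was 1.52 ± 0.364 in LYS against control (edgeR, Benjamini-Hochberg adjusted p = 0.0179), a call that was lost without control 1 (1.46) and without control 2 (1.28). LYS against IMQ gave -0.48 ± 0.307 (edgeR, Benjamini-Hochberg adjusted p = 0.294), with no call.

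Epgn (ENSMUSG00000035020; 91027464 to 91035215, plus strand) encodes epigen, a ligand of EGFR. CPM was 7.73, 3.65 and 7.26 in control, 18.2, 38.0 and 26.0 in IMQ, and 31.1, 26.6 and 27.4 in LYS. The treated groups were above control, and the 3 LYS libraries, which lay close together, were inside the IMQ range. The log2 fold change was 2.13 ± 0.344 in IMQ against control (edgeR, Benjamini-Hochberg adjusted p = 0.0011) and 2.20 ± 0.282 in LYS against control (0.00195). Against IMQ, LYS gave 0.12 ± 0.249 (edgeR, Benjamini-Hochberg adjusted p = 0.752), and its sign turned without IMQ 1, at -0.11.

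Btc (ENSMUSG00000082361; 91357261 to 91402994, minus strand) encodes betacellulin, a ligand of EGFR and ErbB4. CPM was 4.88, 4.25 and 5.84 in control, 20.5, 24.7 and 30.7 in IMQ, and 15.3, 5.59 and 11.7 in LYS. The IMQ libraries were above all others, and LYS 2 was within the control range. Btc was upregulated in IMQ against control at 2.33 ± 0.209 (edgeR, Benjamini-Hochberg adjusted p = 6.7e-05). In LYS against IMQ it gave -1.16 ± 0.354 and no call by edgeR (Benjamini-Hochberg adjusted p = 0.0769), while DESeq2 called it lower at -1.17 (adjusted p = 0.0147, and 0.0147 to 0.23 over the alternatives). Without LYS 1, edgeR called it too, at -1.46. LYS against control gave a call close to the threshold, at 1.13 ± 0.361 (edgeR, Benjamini-Hochberg adjusted p = 0.0479). That call was lost without control 1 (1.09), control 2 (1.0), control 3 (1.25), LYS 1 (0.81) or LYS 3 (1.07). Library totals alone (0.97), a replicate block (1.03) and limma on FPKM (0.57 and 0.83) also gave no call.

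Nrg1 (ENSMUSG00000062991; chromosome 8, 31814551 to 32884029, minus strand) encodes neuregulin 1, which binds ErbB3 and ErbB4 rather than EGFR. It was the scarcest member, with 10 to 27 counts per control library. CPM was 0.918, 0.462 and 1.32 in control, 6.26, 8.27 and 6.59 in IMQ, and 10.6, 8.36 and 3.84 in LYS. The treated libraries were all above control, with LYS 3 the lowest of them and LYS 1 the highest. The log2 fold change was 2.95 ± 0.364 in IMQ against control (edgeR, Benjamini-Hochberg adjusted p = 3.0e-04) and 3.08 ± 0.50 in LYS against control (0.0044). Among the alternatives run, both calls were lost only with limma on log2(FPKM + 1), where the values were 0.37 and 0.49. LYS against IMQ gave 0.17 ± 0.359 (edgeR, Benjamini-Hochberg adjusted p = 0.76), and -0.13 without LYS 1.

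Egfr (ENSMUSG00000020122; chromosome 11, 16752203 to 16918158, plus strand) encodes the EGF receptor, which binds the products of all the ligand genes but Nrg1. CPM was 134, 131 and 143 in control, 97.9, 139 and 108 in IMQ, and 97.7, 90.5 and 71.4 in LYS. The LYS libraries were below all others in CPM, and IMQ 2 lay within the control range. In FPKM the LYS libraries, from 6.923 to 8.448, overlapped those of IMQ, from 7.694 to 9.688, and both groups were below control. IMQ against control gave -0.26 ± 0.143 with no call (edgeR, Benjamini-Hochberg adjusted p = 0.154, and 0.00228 to 0.425 over the alternatives). The scaling moved this value, as TMM put the median of all genes at -0.06 and library totals alone put it at -0.51. Egfr was -0.19 relative to that median with TMM and -0.20 with library totals alone, where its own value of -0.71 was called. It was also called on FPKM by limma, at -0.65 and -0.71. In LYS against control Egfr was downregulated at -0.65 ± 0.154 (edgeR, Benjamini-Hochberg adjusted p = 0.0171). The call was lost without control 3 (-0.61), LYS 2 (-0.68) or LYS 3 (-0.52), with a replicate block (-0.66) and at a log2 fold change beyond 1. LYS against IMQ gave -0.34 ± 0.170 (edgeR, Benjamini-Hochberg adjusted p = 0.189), with no call.

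Erbb2 (ENSMUSG00000062312; chromosome 11, 98412470 to 98437716, plus strand) encodes ErbB2, a receptor with no known ligand that serves as partner to the others. CPM was 61.4, 60.2 and 92.0 in control, 179, 257 and 224 in IMQ, and 183, 105 and 82.4 in LYS. The IMQ libraries were above all controls, LYS 1 was within the IMQ range and LYS 3 was within the control range. Erbb2 was upregulated 3.07-fold in IMQ against control, at 1.62 ± 0.209 (edgeR, Benjamini-Hochberg adjusted p = 3.8e-04), the smallest of the 9 calls. LYS against IMQ gave -0.78 ± 0.291 (edgeR, Benjamini-Hochberg adjusted p = 0.111), and without LYS 1 it gave -1.16 and a call. LYS against control gave 0.80 ± 0.318 (edgeR, Benjamini-Hochberg adjusted p = 0.0911), and without LYS 3 it gave 1.03 and a call. Over the libraries left out, the value ran from 0.4 to 1.03.

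Erbb3 (ENSMUSG00000018166; chromosome 10, 128567523 to 128589652, minus strand) encodes ErbB3, a neuregulin receptor with weak kinase activity of its own. CPM was 74.2, 62.5 and 104 in control, 313, 361 and 373 in IMQ, and 249, 131 and 96.2 in LYS. The IMQ libraries were above all others, and LYS 3 was within the control range. Erbb3 was upregulated 4.33-fold in IMQ against control, at 2.11 ± 0.204 (edgeR, Benjamini-Hochberg adjusted p = 9.4e-05). In LYS against IMQ it gave -1.08 ± 0.324 and no call by edgeR (Benjamini-Hochberg adjusted p = 0.0749). DESeq2 called it lower at -1.10 (adjusted p = 0.0106, and 0.00665 to 0.22 over the alternatives), as did edgeR without LYS 1, at -1.54. LYS against control gave 0.99 ± 0.363 (edgeR, Benjamini-Hochberg adjusted p = 0.0713), and 0.51 to 1.26 over the libraries left out. The value was called without LYS 3, at 1.26, and by DESeq2, at 0.98. In edgeR it was also called with no filter on low counts, at 0.96, or all 9 libraries in 1 fit, at 0.98.

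Levels of different genes were compared in FPKM, which divides the reads of a gene by its exon length and by library size. In control skin the receptors led, at a mean FPKM of 15.8 ± 4.66 for Erbb2 (SD, n = 3), 15.4 ± 4.73 for Erbb3 and 13.8 ± 1.22 for Egfr. The ligands came after them in FPKM, with Ereg at 7.36 ± 3.58, Epgn at 3.97 ± 1.51, Areg at 3.54 ± 1.40, Tgfa at 3.46 ± 1.17, Hbegf at 1.31 ± 0.333, Btc at 1.27 ± 0.257 and Nrg1 at 0.0677 ± 0.0345. Neighbours in this order overlapped in their library ranges except Egfr and Ereg, Tgfa and Hbegf, and Btc and Nrg1. The FPKM of Nrg1 rests on a length of 15433 bases, where its exons span 10351 bases in GENCODE M21.

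In IMQ skin the order was Erbb3 at a mean FPKM of 48.4 ± 1.44 (SD, n = 3), Erbb2 at 35.1 ± 3.73, Ereg at 32.8 ± 6.55, Tgfa at 27.9 ± 2.90, Hbegf at 23.2 ± 3.87, Epgn at 12.5 ± 3.76, Areg at 10.6 ± 1.56, Egfr at 8.43 ± 1.09, Btc at 4.65 ± 0.722 and Nrg1 at 0.380 ± 0.0398. Egfr, among the leading 3 in control, stood below 5 of the ligands here. The ranges separated Erbb3 from Erbb2, Hbegf from Epgn, Egfr from Btc and Btc from Nrg1, and the other neighbours overlapped.

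In LYS skin Erbb3 had a mean FPKM of 27.0 ± 11.96 (SD, n = 3), Erbb2 24.3 ± 8.91, Hbegf 21.2 ± 8.70, Ereg 19.2 ± 11.6, Tgfa 18.9 ± 9.30, Epgn 16.4 ± 0.688, Areg 9.09 ± 3.07, Egfr 7.93 ± 0.876, Btc 2.49 ± 1.05 and Nrg1 0.506 ± 0.207. The first 6 genes in that order overlapped from neighbour to neighbour, as did Areg and Egfr. Epgn was separate from Areg, Egfr from Btc and Btc from Nrg1. Within LYS, the FPKM of Ereg, Areg, Epgn and Btc was lowest in LYS 2, and that of Tgfa, Hbegf, Nrg1 and the 3 receptors was lowest in LYS 3.

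**Figure D2:**
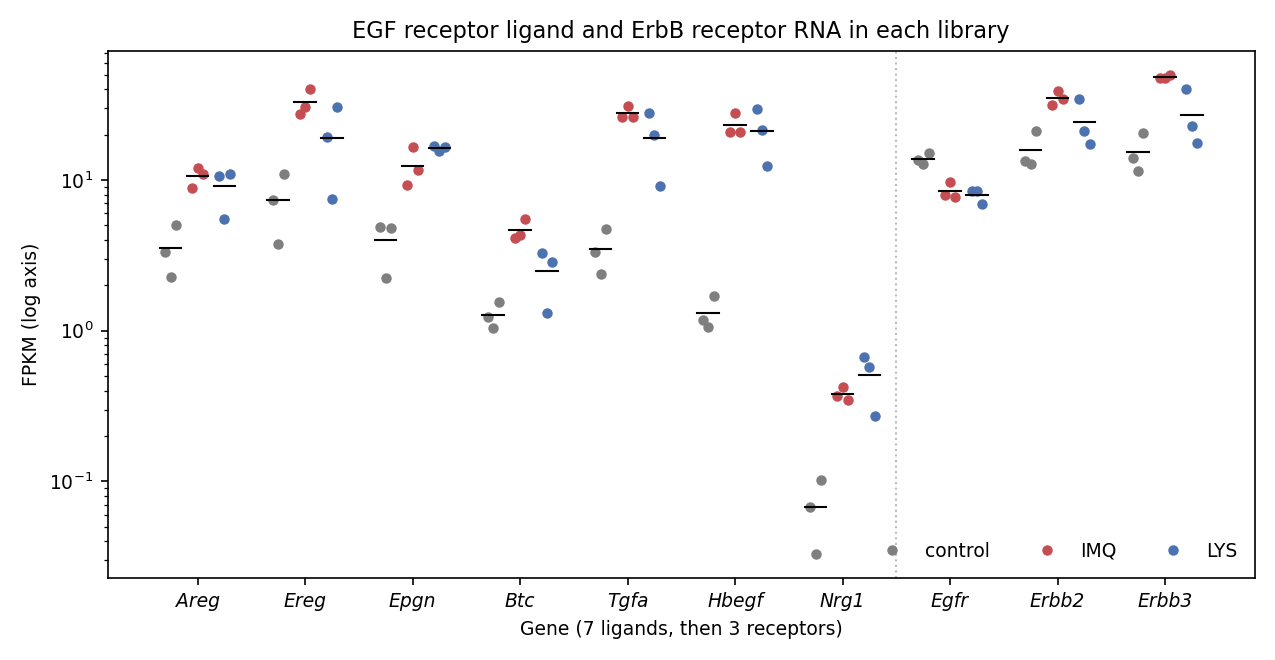
FPKM (y axis, log scale) of each member (x axis) in the 9 libraries, with a point per library coloured by group and a bar at each group mean. IMQ libraries lie above control libraries for 9 members, while Egfr lies between 12.8 and 15.2 in control and between 7.69 and 9.69 in IMQ. Of all genes, 20.5% lie wholly higher in IMQ and 54.6% wholly lower in FPKM.

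The 7 ligands together had an FPKM of 21.4, 12.8 and 28.8 in control 1 to 3, 97.4, 123 and 116 in IMQ, and 108, 71.8 and 83.1 in LYS. The treated libraries were all above control, and IMQ and LYS overlapped. The summed FPKM of the 3 receptors was 45.0 ± 10.5 in control (SD, n = 3), 91.9 ± 4.50 in IMQ and 59.3 ± 21.5 in LYS. The ratio of ligand to receptor FPKM was 0.457 ± 0.0968, 1.22 ± 0.0853 and 1.55 ± 0.378 in the same order of groups.

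The make-up of both sums differed between groups. Hbegf was 6.57% ± 1.55 of the ligand FPKM in control (SD, n = 3), 20.7% ± 2.32 in IMQ and 24.1% ± 7.99 in LYS. Tgfa was 16.8% ± 1.64, 25.0% ± 2.16 and 21.4% ± 9.05 of it, with LYS 3 at 11.1% below the other treated libraries. Ereg was the largest share in control, at 34.0% ± 4.25, and was 29.3% ± 4.97 in IMQ and 21.7% ± 13.6 in LYS, where LYS 2 was at 10.4% and LYS 3 at 36.9%. The shares of Hbegf, Tgfa and Ereg overlapped between IMQ and LYS. Epgn was 19.0% ± 3.355, 11.0% ± 2.19 and 19.1% ± 3.19 of the ligand FPKM, with LYS (15.5% to 21.7%) above IMQ (9.47% to 13.5%). Areg was 16.9% ± 1.22, 9.425% ± 0.312 and 10.3% ± 2.80. Btc was 6.42% ± 1.49, 4.175% ± 0.617 and 2.77% ± 0.8425, with LYS (1.82% to 3.44%) below IMQ (3.52% to 4.74%). Egfr was 31.4% ± 4.19 of the receptor FPKM in control, 9.17% ± 0.887 in IMQ and 14.2% ± 3.56 in LYS. Erbb3 was 33.8% ± 2.65, 52.8% ± 2.94 and 44.7% ± 3.45 of it. The ratio of Erbb3 to Egfr FPKM was 1.10 ± 0.238 in control, 5.81 ± 0.827 in IMQ and 3.35 ± 1.26 in LYS, and the IMQ libraries, from 4.892 to 6.502, stood just above those of LYS, from 2.54 to 4.80.

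**Figure D3:**
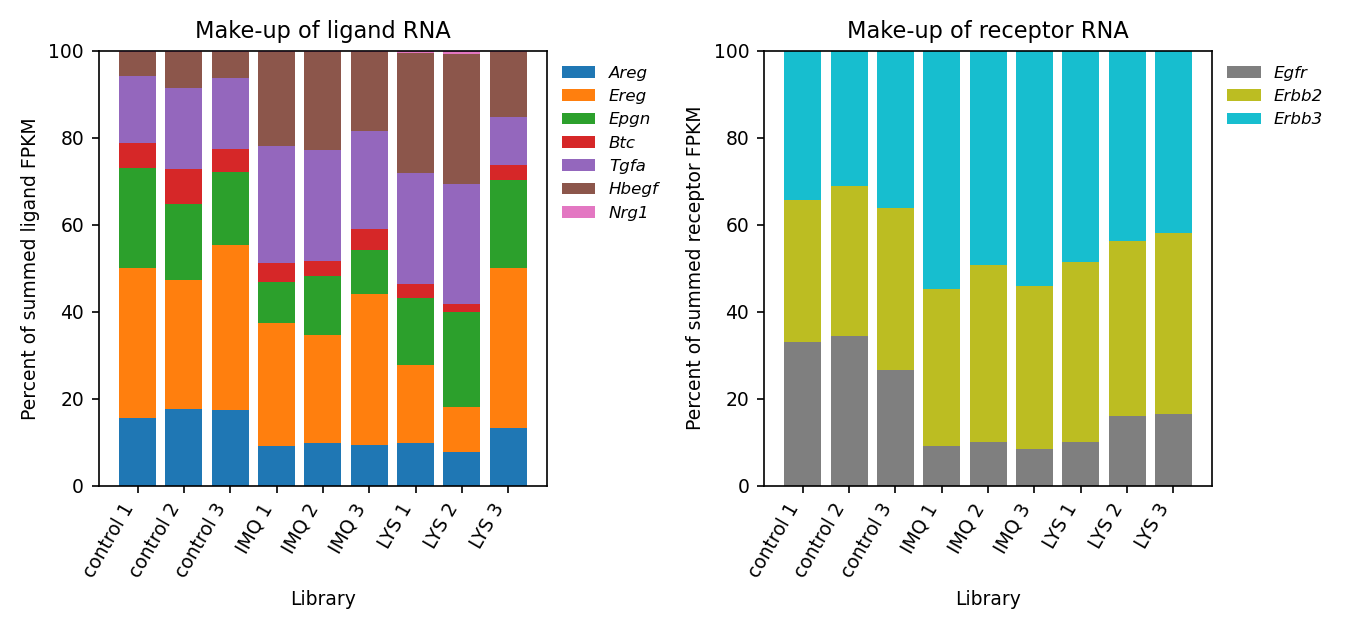
Percent of the summed FPKM (y axis) taken by each of the 7 ligands and by each of the 3 receptors in the 9 libraries (x axis), as stacked bars. The Hbegf share is between 5.50% and 8.34% in control and between 15.0% and 29.8% in the treated libraries, and the Egfr share of the receptors is at most 16.5% in any treated library.

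The family has 5 further genes in the mouse table, which are not members. Egf encodes EGF itself, and Nrg2, Nrg3 and Nrg4 encode neuregulins that bind ErbB3 or ErbB4. Erbb4, the remaining receptor, had 0 to 4 counts per library, and Nrg3 had 0 to 2, and both were removed by the filter on low counts. Nrg4 CPM was 12.4, 17.6 and 11.2 in control, 6.62, 4.47 and 4.395 in IMQ, and 4.68, 7.97 and 11.2 in LYS. The controls were above IMQ, and LYS 3 was just under the lowest control. Nrg4 was downregulated in IMQ against control at -1.41 ± 0.255 (edgeR, Benjamini-Hochberg adjusted p = 0.0019), opposite in direction to Nrg1. Its exons share 368 bases with Fbxo22 (3157 counts over all libraries, against 1500 for Nrg4) on the other strand and 177 with Gm15625. Those of Egf share 607 with Gm42697 and 500 with 6330410L21Rik, those of Nrg1 482 with Gm26578, those of Tgfa 118 with Gm43917 and those of Erbb2 9 with Mien1, all on opposite strands. The strand setting of the counting is not stated.

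Egf CPM was 7.68, 8.22 and 8.86 in control and 6.68, 3.80 and 2.42 in IMQ, and Nrg2 CPM was 2.80, 1.66 and 3.75 in control and 1.15, 1.56 and 0.879 in IMQ. Both lay lower in IMQ without overlap. Egf was downregulated at -0.93 ± 0.340 (edgeR, Benjamini-Hochberg adjusted p = 0.0423) and Nrg2 at -1.20 ± 0.395 (0.0293). The Egf call was lost without control 1 (-1.0), control 2 (-0.94), control 3 (-0.88), IMQ 2 (-0.84) or IMQ 3 (-0.64). The Nrg2 call was lost without control 1 (-1.19), control 3 (-0.90), IMQ 1 (-1.15) or IMQ 3 (-1.0). Outside the libraries left out, Egf lost its call with limma on log2(FPKM + 1), at -0.48, and at a log2 fold change beyond 1. Nrg2 lost it with all 9 libraries in 1 fit (-1.19), a replicate block (-1.15) and limma on log2(FPKM + 1), at -0.57. So the count of 3 downregulated genes among these 5, beside 26.9% of all genes, became 1 without control 1, control 3 or IMQ 3, and with that limma fit. Between LYS and IMQ, edgeR, DESeq2 and limma called 0 of the 5 and 0 were under an unadjusted p of 0.05, against 35.2% of all genes, though Nrg4, at 0.69, was called at 0.96 without LYS 1, and Nrg2, at 0.28, gave -0.27 without LYS 1.

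Among 11 genes that free the ligands or oppose their release, 4 were upregulated and 2 downregulated in IMQ against control, and the median log2 fold change was 0.34. Of all genes 24.1% were upregulated and 26.9% downregulated, at a median of -0.06. Adam17, which encodes the main sheddase of these ligands, had a CPM of 90.9, 90.8 and 89.6 in control, 164, 196 and 192 in IMQ, and 145, 128 and 119 in LYS, so that the 3 groups stood apart. In IMQ against control Adam17 was upregulated at 1.02 (edgeR, Benjamini-Hochberg adjusted p = 1.8e-04), but with library totals alone and with limma on FPKM it gave 0.53 to 0.56 and no call. Its partner genes Rhbdf2, for the iRhom that carries ADAM17 to the surface, and Frmd8, for the protein that steadies iRhom, were upregulated at 1.62 and 1.61. Adam8, for another metalloprotease, was upregulated at 3.04. Adam12, for a sheddase of HB-EGF, was downregulated at -2.70, and Timp3, for an inhibitor of ADAM17, at -2.28. Timp3 FPKM was 29.1, 31.6 and 29.1 in control, 7.32, 4.14 and 2.39 in IMQ, and 4.93, 12.5 and 21.7 in LYS, with LYS 1 inside the IMQ range.

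Of 14 genes that restrain the receptors, 4 were upregulated and 2 downregulated, with a median of 0.25 (all genes 24.1%, 26.9% and -0.06). Cblc and Cbl, which encode ubiquitin ligases for active EGFR, were upregulated at 3.07 and 0.61, the latter lost without control 2 at 0.48. Sh3gl2, for an endophilin of receptor uptake, was upregulated at 2.23, and Ptpn1, for a phosphatase, at 0.95. Errfi1, whose product Mig6 blocks the EGFR kinase, had an FPKM of 78.4, 71.8 and 70.3 in control, 21.6, 30.0 and 26.1 in IMQ, and 27.9, 26.7 and 59.6 in LYS. All treated libraries lay below control, with LYS 3 nearest to it. Errfi1 was downregulated at -1.04 and Lrig1, for a membrane protein that sends ErbB receptors to decay, at -1.27 (edgeR, Benjamini-Hochberg adjusted p = 0.00135 and 0.00123).

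Of 18 genes for the adaptors and the Ras switch that carry the signal inward, 6 were upregulated and 4 downregulated, with a median of 0.23 (all genes 24.1%, 26.9% and -0.06). The upregulated genes were led by Vav3, for an exchange factor, at 1.84, Pik3cb, for a PI3-kinase subunit, at 1.37, Gab1, for a docking protein, at 1.09, and Hras at 0.93. Pik3r1, for the regulatory PI3-kinase subunit, was downregulated at -1.60, Vav2 at -1.07, Nf1, for a Ras inactivator, at -0.94 and Gab2 at -0.80. With library totals alone, the median of all genes was -0.51, with 2390 of 15976 genes upregulated and 6854 downregulated. There 3 shedding genes were upregulated and 5 downregulated, with 2 and 3 for the receptor inhibitors and 3 and 5 for the adaptors. Adam17, Cbl, Ptpn1 and Hras were among the calls lost there, at 0.56, 0.16, 0.49 and 0.47, and limma on FPKM called none of the 4, at 0.15 to 0.56. At a log2 fold change beyond 1, Cbl, Ptpn1, Hras, Nf1 and Gab2 were not called.

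Of 19 genes that ERK signalling induces or that feed back on it, 10 were upregulated and 7 downregulated, with a median of 0.70 (all genes 24.1%, 26.9% and -0.06). These counts were 8 and 8 with library totals alone, beside 2390 and 6854 of 15976 genes. Ier3, an immediate early gene, had an FPKM of 13.2, 17.8 and 23.4 in control, 168, 279 and 310 in IMQ, and 198, 137 and 108 in LYS. The groups overlapped only between IMQ and LYS. Ier3 was upregulated at 4.27, Dusp5, for a nuclear ERK phosphatase, at 3.88, Plaur, for the urokinase receptor, at 3.71 and Maff, for a small bZIP factor, at 2.89. Spry4 and Spred2, for inhibitors of Ras and Raf signalling, were downregulated at -2.74 and -1.0, Dusp4, for another ERK phosphatase, at -1.40, and Etv4, for an ETS factor, at -1.39. Of these 8, only Spred2 lost its call in any alternative, at a log2 fold change beyond 1. Genes of both kinds, induced targets and feedback inhibitors, were found on either side.

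Between LYS and IMQ, edgeR called 0 genes in each of these 4 lists, while 6 of 11 shedding genes, 4 of 14 inhibitors, 11 of 18 adaptors and 11 of 19 ERK genes were under an unadjusted p of 0.05, as were 35.2% of all genes. DESeq2 called 2 shedding genes higher and 1 lower, 0 inhibitors higher and 1 lower, and 4 higher and 2 lower in each of the other lists, with 12.8% of all genes higher and 9.18% lower, and limma called 0. Without LYS 1 edgeR called 4 higher and 1 lower, 0 higher and 4 lower, 4 higher and 4 lower, and 4 higher and 3 lower, in the order of the lists, beside 14.9% of all genes higher and 11.9% lower. Without IMQ 1 it called 2 higher and 0 lower, 1 higher and 0 lower, 1 higher and 2 lower, and 2 higher and 2 lower, beside 6.80% and 5.03% of all genes. The medians were -0.16, -0.05, 0.00 and -0.09, against 0.04 over all genes. In LYS against control they were 0.26, -0.02, 0.20 and 0.23, against -0.01 over all genes.

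Marker genes of skin cell types were read beside the members, in IMQ against control first, where 24.1% of all genes were upregulated and 26.9% downregulated. With library totals alone these were 2390 and 6854 of 15976 genes. Basal keratinocyte markers (8 genes, 6 upregulated and 1 downregulated in IMQ against control but 3 and 1 with library totals alone, Krt14 the most abundant) had a summed FPKM of 1178, 1010 and 1656 in control, 5912, 4349 and 4379 in IMQ, and 6491, 4318 and 4060 in LYS. Suprabasal markers (8 of 8 upregulated, Calm4 most abundant) summed to 3413, 2800 and 5192, then 18240, 23960 and 28140, then 13930, 8425 and 10070. Wound keratinocyte markers (6 of 6 upregulated, Sprr2d most abundant) summed to 458.5, 339.6 and 649.7, then 13350, 16960 and 11940, then 12670, 10970 and 5965. All 3 keratinocyte sums were above control in every treated library, and LYS 3 had the lowest wound sum among them. All 8 suprabasal markers lay lower in LYS than in IMQ without overlap in CPM (22.1% of all genes), with 8 under an unadjusted p of 0.05 (35.2%). There edgeR called 0 of them and limma 0, while DESeq2 (9.18% of all genes lower), and edgeR without LYS 1 (11.9%), called 8 lower, and edgeR without IMQ 1 called 5 lower (5.03%). In CPM without overlap, 1 basal marker lay lower and 1 higher, against 3 and 0 wound markers (22.1% and 16.8% of all genes). DESeq2 called 0 basal markers, and 2 wound markers lower and 0 higher (9.18% and 12.8% of all genes). With edgeR 0 of either list were called, but 2 basal markers were called lower without LYS 1 (11.9%). Fibroblast, endothelial and leukocyte markers mostly lay higher in LYS than in IMQ. Their part in the members' results was not tested.

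Hair follicle markers (15 genes in the table, all downregulated in IMQ against control, Krt71 most abundant) had a summed FPKM of 2060, 1295 and 2887 in control, 7.71, 6.69 and 6.09 in IMQ, and 8.60, 7.13 and 3.41 in LYS. Sebaceous markers (10 of 10 downregulated, Scd1 most abundant) summed to 2454, 3666 and 1444, then 338.8, 128.5 and 128.3, then 374.1, 359.3 and 527.1. Melanocyte markers (7 of 7 downregulated, Tyrp1 most abundant) summed to 128.1, 109.2 and 185.3, then 12.2, 9.01 and 5.13, then 7.92, 13.1 and 16.4. In these appendage and pigment lists every treated library was below every control. Fibroblast markers (9 of 10 downregulated, Col1a1 most abundant) summed to 3510, 4277 and 4098, then 1316, 522.7 and 394.7, then 1276, 2126 and 2720. Adipocyte markers (8 of 8 downregulated, Cfd most abundant) summed to 7034, 9363 and 4670, then 1302, 522.4 and 363.1, then 1129, 2079 and 3482. Skeletal muscle markers (9 of 11 downregulated, Acta1 most abundant) summed to 7276, 7291 and 6819, then 2434, 1896 and 920.1, then 2618, 3270 and 4905. Here too the controls were above all treated libraries, and LYS 3 was the highest of the treated ones. Schwann cell markers (6 of 10 downregulated, Pmp22 most abundant) summed to 297.5, 300.3 and 269.2, then 65.9, 89.3 and 43.8, then 66.2, 137.1 and 246.0. Endothelial markers (7 of 9 downregulated, Pecam1 most abundant) summed to 136.4, 150.8 and 113.9, then 73.2, 39.6 and 31.6, then 80.0, 153.5 and 174.0. LYS 3, the library in which 6 members were lowest within LYS, had the highest sums of these last 5 lists within LYS. It also had the highest sebaceous, melanocyte and leukocyte sums, and the lowest basal, wound, hair follicle and neutrophil sums. The FPKM of Ereg and Areg was highest in LYS 3 within LYS, at 30.62 and 11.04.

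Leukocyte markers (4 of 10 upregulated and 0 downregulated in IMQ against control beside 24.1% and 26.9% of all genes, but 0 and 3 with library totals alone beside 2390 and 6854 of 15976 genes, Cd74 most abundant) had a summed FPKM of 535.5, 409.4 and 485.5 in control, 370.0, 266.3 and 388.3 in IMQ, and 478.9, 628.4 and 720.4 in LYS. Neutrophil markers (7 upregulated of 7 tested, Retnlg most abundant) summed to 40.5, 37.0 and 33.6, then 127.8, 499.2 and 230.0, then 204.4, 186.9 and 102.1. In LYS against IMQ, all 10 fibroblast, all 9 endothelial and 9 of 10 leukocyte markers had a log2 fold change above 0, with 8, 7 and 7 under an unadjusted p of 0.05 (35.2% of all genes) and 0 called by edgeR or limma. DESeq2 called 8, 7 and 6 of them higher (12.8% of all genes). Without LYS 1, edgeR called 6, 7 and 5 higher (14.9%) and 1 leukocyte marker lower (11.9%), and without IMQ 1 it called 9, 7 and 1 higher (6.80%). No marker of the 13 lists that the table holds was at 0 in every library. The part of these cell types in the members' results was not tested.

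Profiles over the 9 libraries were compared by Pearson's r of log2(CPM + 1) against 12007 genes with a mean CPM of at least 5, as a description with no test that pools the 3 groups. Genes close to Tgfa were Psors1c2 and Tgm1 (r = 0.998 and 0.997, n = 9 libraries). Hbegf was most like Sprr2e, Ercc1 and Acp7 (0.997, 0.996 and 0.996) and Nrg1 most like Dsg3, Plcg2 and B3gnt8 (0.986, 0.986 and 0.983). Ereg was most like Akr1d1, Ggct and Areg (r = 0.974, 0.972 and 0.962) and Areg most like Aggf1, Ahnak and Hspa1a (0.982, 0.972 and 0.972). For Epgn the genes were 5031439G07Rik, Cry1 and Sirpb1a (r = 0.983, 0.979 and 0.976), and for Btc Fam25c, Calml3 and Angel1 (0.991, 0.991 and 0.99).

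Among the receptors, Erbb2 was most like Mark2, Rhov and Pard6g (r = 0.998, 0.996 and 0.996, n = 9 libraries) and Erbb3 most like Trim29, Mapkapk3 and Pou2f3 (0.997 each). Egfr was most like Ctcf, Mnd1 and Wnt5a (r = 0.973, 0.964 and 0.947). The number of genes with r over 0.95 was 1152 for Tgfa, 1025 for Erbb3, 939 for Erbb2 and 722 for Hbegf, but 12 for Ereg and 2 for Egfr. Between members, r was 0.99 for Erbb2 and Erbb3, 0.98 for Tgfa and Hbegf and 0.98 for Hbegf and Nrg1. It was 0.96 for Areg and Ereg, for Ereg and Btc and for Tgfa and Nrg1. Egfr had a negative r with each of the other 9 members, from -0.55 with Epgn to -0.06 with Erbb2.

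Epgn, Ereg, Areg and Btc share a stretch of 376 kb on chromosome 5, from 91027464 to 91402994. All 4 were upregulated in IMQ against control, as were 9 of the 10 members and 24.1% of all genes tested. The protein-coding genes on either side were named for their position, after their values were seen. On the Epgn side Mthfd2l was not called, at -0.10, and the chemokine genes Cxcl1 and Cxcl2 were upregulated, at 3.33 and 12.08, the last against only 1 to 6 counts per control library. On the Btc side Parm1 was not called, at -0.36. Ereg shares 141 exon bases with Gm19610 on the other strand, which had 51 counts over all libraries against 12322 for Ereg.

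**Figure D4:**
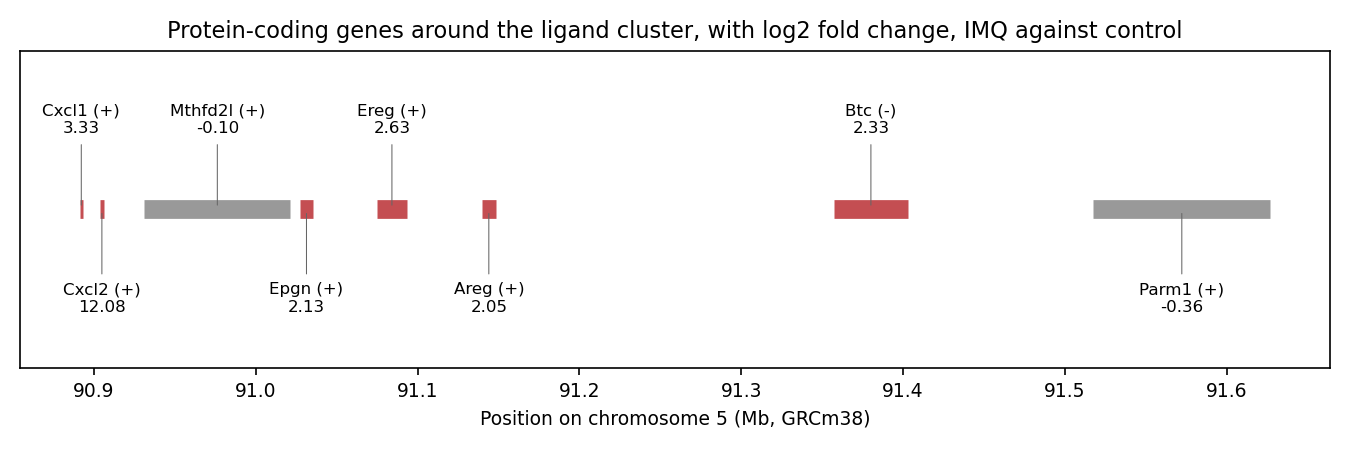
Protein-coding genes along chromosome 5 of GRCm38 (x axis, Mb), drawn to scale as bars with strand and log2 fold change in IMQ against control, red where upregulated and grey where not called. The 4 ligand genes, at 2.05 to 2.63, stand between Mthfd2l at -0.10 and Parm1 at -0.36.

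RefSeq promoter sequence (GRCm38.p6) was matched for 6 of the 10 members, Epgn, Areg, Btc, Tgfa, Egfr and Erbb2, and not for Ereg, Hbegf, Nrg1 and Erbb3. The 250 bases before each RefSeq start were searched on both strands for AP-1 (TGANTCA), CRE (TGACGTCA), STAT (TTCNNNGAA) and TEAD (GGAATG) letters, which 6.73%, 1.55%, 7.04% and 12.6% of 32544 such windows hold. Areg held the CRE letters 61 bases before its start and Erbb2 the TEAD letters 88 bases before its start, both counted from the RefSeq start, and no motif overlapped another. For Epgn and Erbb2 the RefSeq start lies inside the first annotated exon, so their sequences stop short of it. The windows of Epgn, Btc, Tgfa and Egfr held none of these letters, which says nothing about the factors. Sequences are shown for 3 neighbouring ligands that were upregulated, at chr5:91027267-91027463 (plus strand), chr5:91139349-91139598 (plus strand) and chr5:91402995-91403244 (minus strand), and for the receptors Erbb2, which was upregulated, at chr11:98412234-98412469 (plus strand), and Egfr, which was not, at chr11:16751953-16752202 (plus strand). Each runs 5′ to 3′ and ends where the first annotated exon begins, and capitals mark the motif.
Epgn: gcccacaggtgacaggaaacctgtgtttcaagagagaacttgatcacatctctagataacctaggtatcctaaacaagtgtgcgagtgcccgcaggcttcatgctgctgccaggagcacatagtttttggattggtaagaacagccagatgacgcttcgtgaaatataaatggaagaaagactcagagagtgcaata
Areg: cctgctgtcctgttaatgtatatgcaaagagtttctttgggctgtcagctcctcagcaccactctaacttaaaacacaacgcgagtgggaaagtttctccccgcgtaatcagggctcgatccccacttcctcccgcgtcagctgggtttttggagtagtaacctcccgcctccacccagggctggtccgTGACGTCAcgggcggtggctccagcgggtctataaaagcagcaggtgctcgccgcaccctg
Btc: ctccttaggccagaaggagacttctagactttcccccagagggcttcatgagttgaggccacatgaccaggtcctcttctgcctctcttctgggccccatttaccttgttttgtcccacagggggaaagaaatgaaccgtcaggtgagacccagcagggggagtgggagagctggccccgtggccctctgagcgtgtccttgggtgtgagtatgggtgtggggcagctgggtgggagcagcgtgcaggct
Erbb2: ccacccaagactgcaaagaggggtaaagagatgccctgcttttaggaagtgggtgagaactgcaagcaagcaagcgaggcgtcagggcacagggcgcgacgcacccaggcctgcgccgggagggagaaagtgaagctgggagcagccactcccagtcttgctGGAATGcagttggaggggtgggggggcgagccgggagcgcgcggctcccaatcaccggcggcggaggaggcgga
Egfr: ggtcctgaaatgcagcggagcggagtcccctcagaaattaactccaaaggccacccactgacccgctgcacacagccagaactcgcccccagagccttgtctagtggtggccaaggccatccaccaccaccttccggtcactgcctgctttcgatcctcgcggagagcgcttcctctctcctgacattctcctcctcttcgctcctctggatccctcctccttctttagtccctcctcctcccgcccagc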

How the data were processed

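The authors aligned reads to GRCm38 with HISAT2 and counted them with HTSeq 0.13.5, and they deposited raw counts and FPKM for 9 libraries. The strand setting is not stated. Here the quasi-likelihood F test of edgeR 4.0.16 was run on the counts under R 4.3.3, after filterByExpr and TMM scaling, with Benjamini-Hochberg adjustment over all genes tested. Each fit held only the 2 groups compared. A call needed an adjusted p below 0.05 and a log2 fold change beyond 0.58, the study's thresholds. The 16 alternatives per comparison included DESeq2 1.42.0, limma 3.58.1 on FPKM, other scaling, filters and thresholds, and leaving out each of 6 libraries. The code was tested on simulated data. Figures were drawn with Python 3.11.15 and matplotlib 3.10.9. The genes named were all members and the other family genes, from each pathway list up to 4 called genes with the largest change each way in IMQ against control, the most abundant gene of each marker list, and the 3 genes most like each member, of which 1 is not reported here. The members and the 18 lists were chosen with earlier results of these data known. Groups of 3 libraries, with depths of 14658645 to 19609878 counts, limit the precision.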

Additional observations from a re-analysis of the deposited data

How the results depend on the processing

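The count of members called in IMQ against control was 9, and over the 16 alternatives 156 of 160 member values kept their direction and their side of the threshold, 3 became calls (Egfr) and 1 lost its call (Nrg1). In LYS against IMQ it was 0, and was 2 with DESeq2, with no filter on low counts and with all 9 libraries in 1 fit, and 0 to 4 when libraries were left out. Of 160 member values there, 148 held, 10 became calls and 2 reversed. The reversed values were -0.11 for Epgn without IMQ 1 (range over libraries left out -0.11 to 0.41), -0.13 for Nrg1 without LYS 1 (-0.13 to 0.48) and, outside the members, -0.27 for Nrg2 without LYS 1 (-0.27 to 0.56). The cause was not tested. With libraries left out, Ereg ran from -1.51 to -0.66 in LYS against IMQ, Areg from -0.65 to -0.22 and Egfr from -0.45 to -0.2. Egfr ran from -0.4 to -0.13 in IMQ against control. In LYS against control, 7 members were called (5 to 9 over the alternatives), 133 of 160 values held, 10 became calls and 17 lost them. Genes called over the whole table in LYS against IMQ went from 0 to 3334 with DESeq2, 2419 with no filter, 3040 with all 9 libraries, 1873 without IMQ 1 and 4262 without LYS 1. In LYS against control they went from 4476 to 2910 at a log2 fold change beyond 1, 2579 without control 1, 2947 without control 2 and 2926 without LYS 2. Library totals alone put the median of all genes at -0.51, 0.29 and -0.15 in the 3 comparisons, in the order used here, against -0.06, 0.04 and -0.01 with TMM. A replicate block gave 9, 0 and 6 members called and 8044, 0 and 3126 genes called in IMQ against control, LYS against IMQ and LYS against control. The study assigned mice to groups at random, so replicate numbers were not taken as pairs. Correlations of levels centred on their groups ran from -0.46 to 0.2 between libraries of the same number. Between libraries of different number they ran from -0.295 to 0.47. Centring ties these values together, so their range alone cannot decide on pairing. The p-values rest on the spread between 3 libraries a group, with the spread of each gene drawn toward a trend over all genes. Library pairs of a group differed at a chi-square of 16.9 to 100 per degree of freedom, where counting error alone gives about 1. Counting error bears most on Nrg1, with 10 to 27 counts per control library.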
